A study of Mus musculus with 28 samples.

Results

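The averaged effect of Tbl1xr1 lesions on gene expression was measured in germinal center B cells of mice, as the mean of 3 differences, each between a group with a lesion and its own control group. All 28 libraries of the series entered it, from 6 groups. Mice heterozygous for Tbl1xr1 D370Y (5 libraries) were set against mice with unmutated Tbl1xr1 (WT, 3 libraries). Heterozygous D370Y on the ImuBcl6 background (5 libraries) was set against ImuBcl6 with unmutated Tbl1xr1 (5 libraries), and mice labelled Tbl1xr1 KO/KO (5 libraries) against a Cre control with unmutated Tbl1xr1 (5 libraries). Every group, controls included, was heterozygous for Cg1Cre, an allele that expresses Cre recombinase from the immunoglobulin gamma 1 constant region locus and so acts in activated B cells. ImuBcl6 places Bcl6 under an immunoglobulin heavy chain promoter, which keeps Bcl6 on in B cells. The labels do not say how the cells were isolated. WT and the Cre control carry the same genotype label and differ in their library protocol text. Per gene, each difference was taken on log2(CPM + 1), where CPM is the deposited read count scaled to the size of the library, and the 3 differences had equal weight. A total of 10826 autosomal genes with at least 1 CPM in at least 3 libraries were tested. Sex chromosome genes were left out, because Xist and Ddx3y differed between groups.

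TBL1XR1, a protein with WD40 repeats, belongs to the corepressor complexes built around NCOR (Ncor1), which carry the histone deacetylase HDAC3. BCL6, the transcriptional repressor that defines germinal center B cells, silences many of its targets through these complexes, among them genes for migration, survival and exit from the germinal center. Germinal center B cells leave either as memory B cells or as plasma cells, and TBL1XR1 is mutated in human B cell lymphomas. The title of the series asks about a bias of germinal center B cells toward a memory fate.

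The codon changed by D370Y is shown because it is the lesion in 2 of the 3 pairs. It lies at chr3:22200650-22200652 (mm10, GENCODE M21, plus strand) in exon 12 of a Tbl1xr1 transcript whose reading frame has 514 codons. The reference coding sequence around it is given with codon 370, an aspartate codon, in capitals, and D370Y replaces that aspartate with tyrosine. No base of the mutant allele is given in the sources used here, nor which part of the gene the KO allele lacks.
Tbl1xr1 codon 370: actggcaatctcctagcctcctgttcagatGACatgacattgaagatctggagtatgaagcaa

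The libraries held 19022495 to 37700121 reads on listed genes, and 3 reads corresponded to 0.0640 to 0.133 CPM. Nothing in the labels ties a library to an animal, so each p-value reflects only how far the samples of a group spread, and that spread could be technical. The library of KO replicate 3 stood apart, with 64.4% of the authors' CPM denominator on listed genes against 78.7% to 84.6% in the other 27 libraries, and counts are given without it as well where leaving it out moved them by over 1.5 times. The summed level of 20 germinal center genes lay between 5538 and 9101 CPM in all 28 libraries, and that of 6 pan B cell genes between 4064 and 6388 CPM. Xist was high in all 5 D370Y and all 5 ImuBcl6 libraries and low in all 3 WT and all 5 ImuBcl6 D370Y libraries, so sex and lesion cannot be told apart within either of these pairs, while KO and Cre control libraries each held both kinds. In bulk samples fewer cells of a type and less RNA per cell cannot be told apart.

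Tbl1xr1 itself (chromosome 3, 22076652 to 22216594, plus strand) did not pass the test in the average, at -0.11 ± 0.056 (SE; 95% interval -0.23 to 0.0019; limma adjusted p = 0.197). The transcript had 135, 140.2, 141, 147 and 165 CPM in D370Y libraries, against 156, 171 and 176 CPM in WT libraries. On the ImuBcl6 background it had 94.7, 97.9, 98.6, 98.9 and 101.4 CPM in ImuBcl6 D370Y libraries, against 106, 113, 129, 134 and 159 CPM in ImuBcl6 libraries. The 5 ImuBcl6 D370Y libraries lay below all 5 ImuBcl6 libraries, and this pair passed the test (-0.37 ± 0.092, limma adjusted p = 0.0120). The D370Y and KO pairs, at -0.21 and 0.23, did not pass. The pair of the KO label had 89.7, 93.0, 94.4, 105 and 127 CPM in KO libraries, against 80.6, 80.8, 85.7, 88.4 and 94.5 CPM in Cre control libraries, with overlapping groups. The KO label was therefore not visible as a lower Tbl1xr1 level, and whole-gene CPM do not show the loss of an exon. Bcl6 (chromosome 16, 23965052 to 23988852, minus strand) was at -0.066 ± 0.045 in the average (adjusted p = 0.386), with pair differences of -0.0037, -0.24 and 0.044 in the order D370Y, ImuBcl6 D370Y and KO, and the second of these passed the test in its pair (adjusted p = 0.0471).

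Averaged over the 3 pairs, limma called 1419 of 10826 genes at an adjusted p below 0.05, which is 13.1% of those tested. Of these, 581 were higher with a lesion (5.37%) and 838 lower (7.74%), so 40.9% of the calls were rises. CPM taken over listed genes alone turned this split round, with 982 rises and 657 falls on the same genes (59.9% rises), and without KO replicate 3 the counts were 997 rises and 1061 falls. Scaling by TMM factors left 43.6% of calls as rises and DESeq2 size factors 42.2%. The majority of falls thus held with these factors and turned round with listed-gene CPM. With listed-gene CPM and its own low-value filter, 1658 of 10990 genes were called, among them 1198 of the 1419, all in the same direction. Most averaged changes were small. The median absolute difference of called genes was 0.26 on the log2 scale, 1264 of the 1419 lay within 0.5, and Cd36, Zeb2 and Emp2 lay at least 1 from 0. The median difference over all genes tested was -0.022. A single pair called fewer genes in the same fit: 233 (2.15%; 1.82% higher and 0.333% lower) between D370Y and WT, 764 (7.06%; 2.56% higher and 4.5% lower) between ImuBcl6 D370Y and ImuBcl6, and 277 (2.56%; 0.757% higher and 1.8% lower) between KO and Cre control. Without KO replicate 3 the KO pair called 193 genes higher and 179 lower, against 82 and 195 with it, so the balance of its calls turned round. The median SE was 0.063 for the average, against 0.12, 0.10 and 0.10 for the pairs in that order, and 640 of the averaged calls were made in no pair alone.

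**Figure D1:**
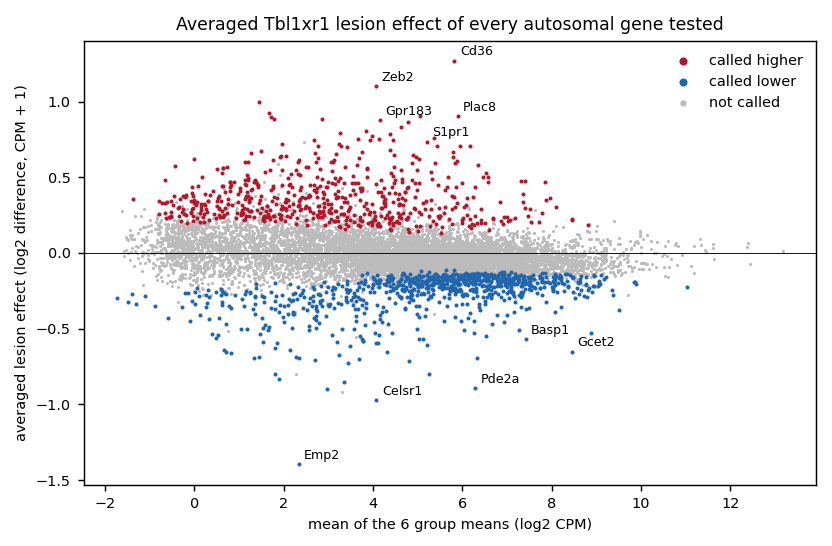
Averaged lesion effect (vertical axis, log2 difference on CPM + 1) of the 10826 autosomal genes tested, against the mean of the 6 group means (horizontal axis, log2 CPM), with genes called higher in red, called lower in blue and not called in grey. The 581 rises spread over the whole range of levels, and many of the 838 falls sit between 0 and -0.5 at higher levels.

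Cd36, which encodes a scavenger receptor and fatty acid transporter, had the largest averaged rise. It had 79.6, 80.5, 94.3, 94.6 and 189 CPM in D370Y libraries, against 43.6, 49.3 and 57.3 CPM in WT libraries. On the ImuBcl6 background it had 80.0, 90.4, 110.1, 112 and 112 CPM in ImuBcl6 D370Y libraries, against 27.0, 32.7, 35.3, 47.1 and 62.1 CPM in ImuBcl6 libraries, and the last pair had 22.01, 26.8, 29.0, 35.9 and 37.5 CPM in KO libraries, against 7.34, 9.86, 10.4, 11.8 and 12.2 CPM in Cre control libraries. In all 3 pairs every lesion library lay above every control library, although the level differed several fold between the pairs. The averaged difference was 1.27 ± 0.13 (chromosome 5, 17781690 to 17888801, minus strand; limma adjusted p = 2.65e-07), with 1.02, 1.33 and 1.46 in the pairs.

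Zeb2, a zinc finger transcriptional repressor, rose by 1.10 ± 0.083 (chromosome 2, 44983632 to 45117395, minus strand; adjusted p = 2.22e-10), with differences of 0.99, 1.18 and 1.14 in the pairs. It had 25.8, 27.5, 27.7, 31.5 and 35.1 CPM in D370Y libraries, against 12.6, 14.7 and 15.6 CPM in WT libraries. With ImuBcl6 it had 22.2, 23.2, 24.1, 29.6 and 35.1 CPM in ImuBcl6 D370Y libraries, against 8.63, 9.99, 10.3, 11.5 and 16.5 CPM in ImuBcl6 libraries. KO and Cre control cells showed a lower level and the same separation, with 9.92, 11.6, 12.97, 13.02 and 15.7 CPM in KO libraries, against 4.17, 4.69, 5.399, 5.76 and 5.81 CPM in Cre control libraries. Exons of Zeb2 overlap those of the opposite-strand gene Gm13476, which also rose (0.92 ± 0.11), and their reads cannot be told apart because no strand setting of the counting is stated.

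Gpr183 and S1pr1, which guide B cells, rose with the lesions. Gpr183, the oxysterol receptor EBI2 that positions B cells at the edge of the follicle, had 28.8, 29.5, 30.3, 30.7 and 37.1 CPM in D370Y libraries, against 16.2, 16.9 and 18.6 CPM in WT libraries. With ImuBcl6 it had 14.3, 15.7, 17.2, 24.2 and 26.6 CPM in ImuBcl6 D370Y libraries, against 7.22, 7.26, 7.31, 8.48 and 9.49 CPM in ImuBcl6 libraries, and in the last pair 16.7, 18.1, 19.8, 20.3 and 21.4 CPM in KO libraries, against 10.2, 11.4, 12.02, 12.9 and 13.2 CPM in Cre control libraries. The groups did not overlap in any pair, and the averaged difference was 0.88 ± 0.074 (adjusted p = 9.47e-10). S1pr1, the sphingosine 1-phosphate receptor used for exit from lymphoid tissue, rose by 0.74 ± 0.059 (adjusted p = 5.73e-10). It had 64.3, 64.6, 65.0, 68.7 and 76.1 CPM in D370Y libraries, against 34.9, 35.5 and 39.2 CPM in WT libraries. The other pairs had 35.6, 36.5, 39.8, 39.9 and 49.2 CPM in ImuBcl6 D370Y libraries, against 19.9, 23.4, 26.4, 26.5 and 27.2 CPM in ImuBcl6 libraries, and 28.6, 30.1, 33.7, 34.6 and 35.4 CPM in KO libraries, against 17.5, 18.1, 19.8, 22.8 and 23.9 CPM in Cre control libraries, again without overlap. Its opponent in retention, S1pr2, was at -0.15 ± 0.058 and did not pass the test (adjusted p = 0.0927).

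Bcl2, which blocks apoptosis and is kept low in germinal center cells, rose by 0.79 ± 0.080 (adjusted p = 3.11e-08). It had 15.1, 16.7, 16.7, 16.8 and 22.7 CPM in D370Y libraries, against 9.51, 10.5 and 10.6 CPM in WT libraries, and 13.5, 14.5, 15.2, 16.6 and 18.8 CPM in ImuBcl6 D370Y libraries, against 5.10, 5.44, 7.55, 7.89 and 9.08 CPM in ImuBcl6 libraries. In KO cells the level was lower but the groups were still apart, with 3.41, 3.94, 4.34, 4.69 and 5.30 CPM in KO libraries, against 1.92, 2.23, 2.91, 2.96 and 3.06 CPM in Cre control libraries. Of the 14 members of the BCL2 family tested, only Bcl2 and Bcl2l2 (0.34 ± 0.068), both antiapoptotic, were called, and the family's median was -0.016. The share called was 14.3% of the family, against 13.1% of all genes.

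**Figure D2:**
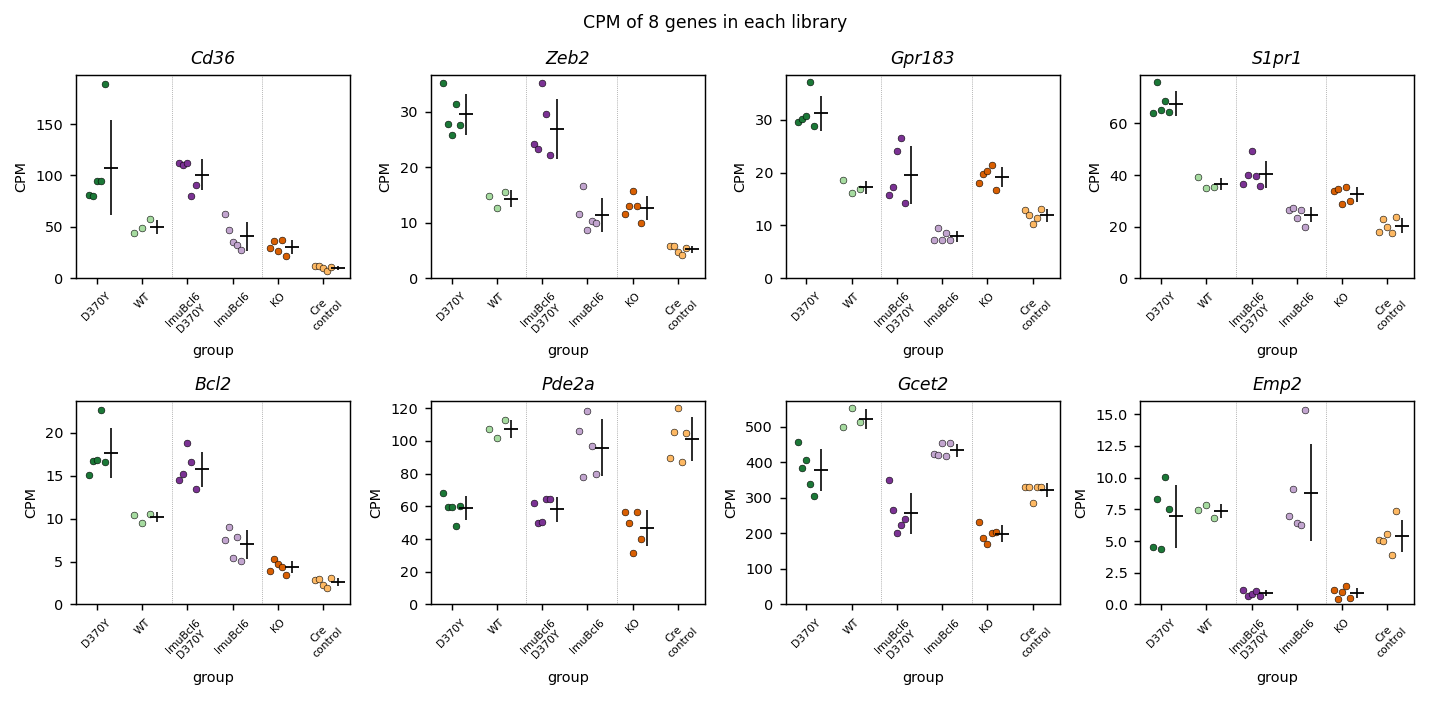
CPM (vertical axes, from 0) of 8 genes in each library (points), with the mean and SD of each group beside them, lesion groups left of their controls and dotted lines between pairs. Cd36, Zeb2, Gpr183, S1pr1 and Bcl2 lie higher and Pde2a and Gcet2 lower in the lesion libraries of every pair without overlap, while Emp2 lies lower in ImuBcl6 D370Y and KO libraries but overlaps between D370Y and WT.

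The large rises and falls named here are taken from the 12 largest in each direction among genes with a mean of at least 5 CPM and the same sign in all 3 pairs. The other rises among them include cell surface enzymes and signalling proteins. The metalloprotease Adam19 rose by 0.91 ± 0.10, the sialyltransferase St3gal6 by 0.86 ± 0.088, the adaptor Grap2 by 0.83 ± 0.076 and the phosphatase Ptpn22 by 0.79 ± 0.089. Plac8 (0.90 ± 0.12), Emr1 (0.88 ± 0.15), a surface marker of macrophages, and S100a10 (0.77 ± 0.097), a partner of annexin A2, had smaller differences in the KO pair, at 0.064, 0.13 and 0.22, none of which passed the test there. Unequal effects passed the test for Plac8 (F-test adjusted p = 0.0444) and missed it for Emr1 (0.243) and S100a10 (0.109). Exons of St3gal6 overlap the opposite-strand gene Dcbld2.

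Pde2a, a phosphodiesterase that breaks down cyclic nucleotides and is activated by cyclic GMP, fell in each of the 3 pairs. It had 47.8, 59.7, 59.9, 60.2 and 68.4 CPM in D370Y libraries, against 102, 108 and 113 CPM in WT libraries. With ImuBcl6 it had 49.6, 50.5, 62.1, 64.2 and 64.7 CPM in ImuBcl6 D370Y libraries, against 77.8, 80.0, 97.2, 106 and 119 CPM in ImuBcl6 libraries, and the last pair had 31.6, 39.9, 49.8, 56.5 and 56.6 CPM in KO libraries, against 86.9, 89.3, 105, 105 and 120.1 CPM in Cre control libraries. No lesion library reached a control library in any pair, and the averaged difference was -0.89 ± 0.082 (chromosome 7, 101421691 to 101512827, plus strand; adjusted p = 1.01e-08). Of the 9 phosphodiesterase genes tested, Pde2a was called lower and Pde8a higher (0.34 ± 0.092), a share of 22.2% against 13.1% of all genes. Gcet2, an older symbol of Gcsam, encodes a germinal center signalling adaptor that restrains cell motility. It had 304, 338, 384, 405 and 457 CPM in D370Y libraries, against 501, 513 and 554 CPM in WT libraries. The other pairs had 202, 224, 239.7, 266 and 351 CPM in ImuBcl6 D370Y libraries, against 418, 419, 422, 454 and 455 CPM in ImuBcl6 libraries, and 169, 187, 202, 204 and 233 CPM in KO libraries, against 285, 329.6, 330.4, 331 and 331 CPM in Cre control libraries. The groups did not overlap, and the averaged difference was -0.65 ± 0.067 (adjusted p = 4.15e-08).

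The 2 largest averaged falls rested on the ImuBcl6 and KO pairs. Emp2, a tetraspan membrane protein, had 4.34, 4.53, 7.51, 8.34 and 10.05 CPM in D370Y libraries, against 6.78, 7.49 and 7.83 CPM in WT libraries, which overlapped. With ImuBcl6 it had 0.702, 0.704, 0.824, 1.06 and 1.18 CPM in ImuBcl6 D370Y libraries, against 6.27, 6.42, 6.98, 9.13 and 15.3 CPM in ImuBcl6 libraries, and in the last pair 0.467, 0.525, 0.976, 1.13 and 1.46 CPM in KO libraries, against 3.93, 5.03, 5.08, 5.58 and 7.33 CPM in Cre control libraries, both without overlap. The differences were -0.13, -2.31 and -1.75, averaging -1.40 ± 0.12, and they were unequal (F-test adjusted p = 0.000625). Celsr1, a cadherin of planar cell polarity, had the same pattern, with differences of -0.22, -1.44 and -1.26, an average of -0.97 ± 0.097 and unequal effects (F-test adjusted p = 0.0235). It had 18.01 ± 4.01 CPM (SD, n = 5) in D370Y and 20.8 ± 2.19 CPM (SD, n = 3) in WT cells, 7.01 ± 1.94 CPM (SD, n = 5) in ImuBcl6 D370Y and 20.4 ± 3.24 CPM (SD, n = 5) in ImuBcl6 cells, and 9.84 ± 1.36 CPM (SD, n = 5) in KO and 25.2 ± 4.98 CPM (SD, n = 5) in Cre control cells. Other large falls were Dhrs3 (-0.85 ± 0.090), a retinaldehyde reductase, the oxysterol-binding protein gene Osbpl3 (-0.80 ± 0.13), Aif1l (-0.73 ± 0.10), the membrane protein paralemmin Palm (-0.72 ± 0.075), the vesicle priming factor Unc13a (-0.71 ± 0.081), the adaptor Sh2b2 (-0.69 ± 0.081), Myzap (-0.67 ± 0.091) and D0H4S114 (-0.90 ± 0.16), listed as Nrep in GENCODE. Exons of Unc13a overlap the opposite-strand gene Glt25d1.

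**Figure D3:**
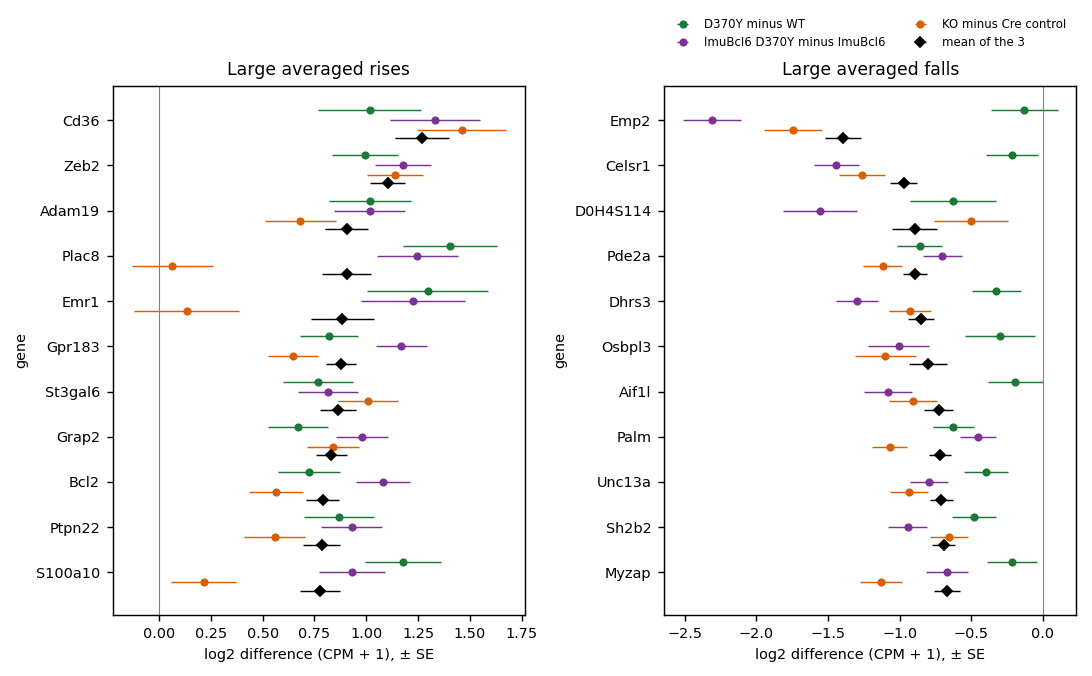
Log2 difference (horizontal axes, CPM + 1, ± SE) of large averaged rises (left) and falls (right) in the D370Y (green), ImuBcl6 D370Y (purple) and KO (orange) pairs, with the mean of the 3 as black diamonds. Zeb2 and Pde2a have similar values in all pairs, Plac8 and Emr1 lie near 0 in the KO pair, and Emp2, Celsr1 and Aif1l lie near 0 in the D370Y pair.

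Evenness across the pairs was counted in 2 ways. The test was passed in each pair separately by 41 genes, of which 27 were higher and 12 lower in all 3 pairs, while 1700048O20Rik and Efcab7 changed in opposite directions between pairs. Without KO replicate 3 there were 66 such genes, 43 higher and 21 lower. Lesion and control libraries did not overlap in any of the 3 pairs for 19 higher genes (0.176% of those tested) and 34 lower genes (0.314%), and without KO replicate 3 for 44 and 36. Beyond those already named, members of these sets chosen after their values were seen include Tmem26 (0.998 ± 0.086), the Src-like adaptor Sla (0.70 ± 0.069), the sialic acid hydroxylase Cmah (0.64 ± 0.056), the kinase Map3k1 (0.59 ± 0.062) and the basement membrane protein Nid1 (0.71 ± 0.091) among the rises. Among the falls they include the magnesium transporter Slc41a2 (-0.55 ± 0.045), the deubiquitinase Otub2 (-0.53 ± 0.060), annexin Anxa2 (-0.53 ± 0.072), the phosphatase Cdc14b (-0.57 ± 0.079) and the polo-like kinase Plk2 (-0.64 ± 0.10). Cmah differed by 0.55, 0.57 and 0.79 and Slc41a2 by -0.40, -0.54 and -0.70 in the pairs.

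Most memory B cell genes rose. Of 20 tested, 15 were called higher and 1 lower, against 5.37% higher and 7.74% lower of all genes, and their median averaged difference was 0.52 against -0.022 over all genes. The pair medians were 0.55, 0.52 and 0.31 in the order D370Y, ImuBcl6 D370Y and KO. Besides Gpr183, S1pr1 and Bcl2, the ectoenzyme Cd38 rose by 0.71 ± 0.079, the transcription factor Klf2, which drives S1pr1, by 0.63 ± 0.089, and the homeodomain factor Hhex by 0.67 ± 0.18. Cd38 had 99.7 ± 10.6 CPM (SD, n = 5) in D370Y and 65.5 ± 7.66 CPM (SD, n = 3) in WT cells, 115 ± 25.7 CPM (SD, n = 5) in ImuBcl6 D370Y and 54.7 ± 4.56 CPM (SD, n = 5) in ImuBcl6 cells, and 55.9 ± 11.8 CPM (SD, n = 5) in KO and 39.1 ± 4.52 CPM (SD, n = 5) in Cre control cells. The chemokine receptors Ccr7 (0.60 ± 0.079) and Ccr6 (0.55 ± 0.11), the integrin subunit Itgb7 (0.48 ± 0.074), the cytokine receptor Il9r (0.53 ± 0.14), Cd55 (0.51 ± 0.078), the ligand Pdcd1lg2 (0.44 ± 0.097), the transcription factor Zbtb32 (0.33 ± 0.11) and the costimulator Cd80 (0.29 ± 0.086) rose as well. Nt5e, the ectonucleotidase CD73, fell (-0.29 ± 0.069). The members that were not called were Ski (0.17), Cd44 (-0.10), Cr2 (0.066) and Fcer2a (0.20). Without KO replicate 3 the counts were again 15 and 1, and without the D370Y pair 11 and 1.

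Because 8 genes stand in both lists, the memory and naive B cell counts overlap. Of 16 naive genes tested, 10 were called higher (62.5%, against 5.37% of all genes), with a median of 0.42. Among the 10 were the adaptor Bank1 (0.47 ± 0.061), the complement regulator Cd55 and the transcription factor Foxp1 (0.24 ± 0.046). The GTPases Gimap4 (0.47 ± 0.071) and Gimap6 (0.37 ± 0.072) rose as well. No naive gene was called lower by limma, edgeR or DESeq2, and at an unadjusted p below 0.05 the count was also 0. Levels of Fcer2a, Cr2, Btla and Il4ra, surface receptors of resting B cells, did not pass the test (0.20, 0.066, 0.046 and 0.052).

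Most germinal center genes fell by small amounts. Of 19 tested, 13 were called lower (68.4%, against 7.74% of all genes). The median was -0.22, with pair medians of -0.17, -0.20 and -0.22. The counts were 12 without KO replicate 3, 10 with CPM over listed genes and 7 without the ImuBcl6 pair. Beside Gcet2, the largest falls were Basp1 (-0.57 ± 0.081), the glycosyltransferase Gcnt3 (-0.36 ± 0.086) and Gm600 (-0.30 ± 0.048), an older symbol of the germinal center GTPase Nuggc. Basp1 had 185 ± 6.38 CPM (SD, n = 5) in D370Y and 256 ± 7.09 CPM (SD, n = 3) in WT cells, 95.3 ± 20.1 CPM (SD, n = 5) in ImuBcl6 D370Y and 165 ± 18.9 CPM (SD, n = 5) in ImuBcl6 cells, and 139 ± 29.6 CPM (SD, n = 5) in KO and 188 ± 31.3 CPM (SD, n = 5) in Cre control cells. Others that fell were Fas (-0.15 ± 0.050), Mef2b (-0.25 ± 0.086), Plxnb2 (-0.28 ± 0.054), Rassf6 (-0.28 ± 0.048), Neil1 (-0.22 ± 0.051), Klhl6 (-0.24 ± 0.053), Stap1 (-0.21 ± 0.068) and Pou2af1 (-0.22 ± 0.052). Not called were Bcl6 itself, S1pr2, Rgs13 (0.077), Mybl1 (-0.13), the methyltransferase Ezh2 (-0.10) and Irf8 (-0.031). None of the 19 was called higher by limma, edgeR or DESeq2, nor at an unadjusted p below 0.05. The summed level of the germinal center list was 7342 to 8258 CPM in D370Y against 8695 to 9101 CPM in WT libraries, 6342 to 7219 CPM in ImuBcl6 D370Y against 7976 to 8858 CPM in ImuBcl6 libraries, and 5538 to 7547 CPM in KO against 7353 to 8203 CPM in Cre control libraries.

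**Figure D4:**
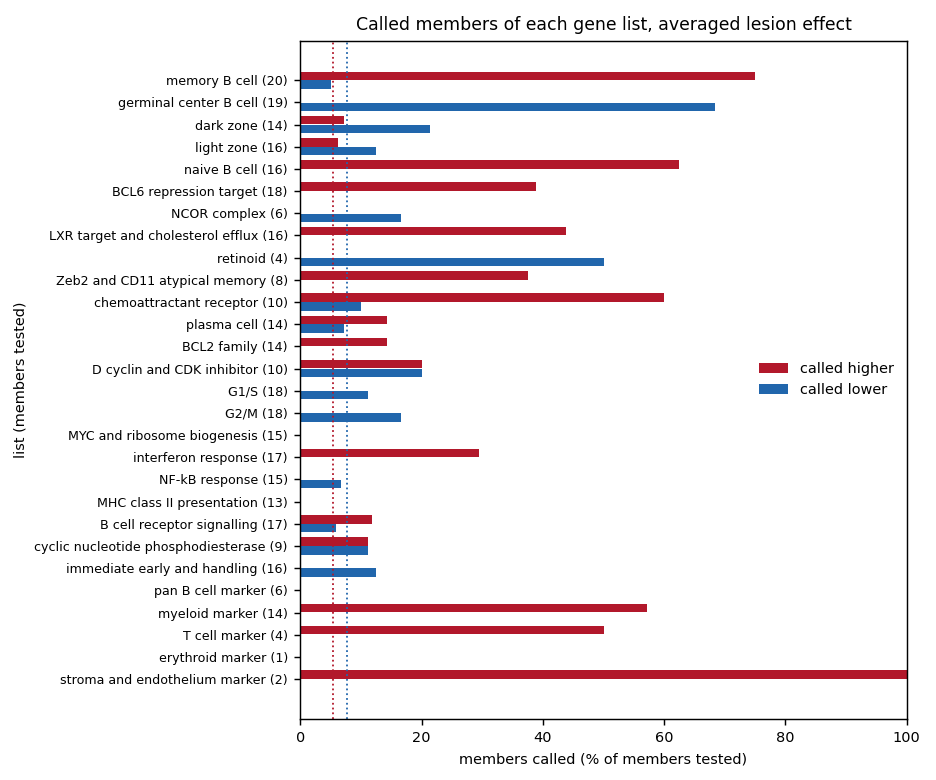
Share of tested members (horizontal axis, %; number tested in brackets) called higher (red) and lower (blue) in the averaged effect for each of 28 gene lists, with dotted lines at the shares over all genes, 5.37% higher and 7.74% lower. The memory, naive, chemoattractant receptor and myeloid lists have the longest red bars among lists with at least 10 members tested, and the germinal center list the longest blue bar.

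Targets that BCL6 is known to repress gave 7 rises among 18 tested (38.9%) and no falls by limma. Of all genes 5.37% rose and 7.74% fell, and the median of these targets was 0.13. At an unadjusted p below 0.05 there were 2 falls, and edgeR and DESeq2 each called 1. The risers were Gpr183, Bcl2, S1pr1, the cyclin Ccnd2 (0.62 ± 0.078), the plasma cell regulator Prdm1 (0.46 ± 0.13), Cd80 and the cell cycle inhibitor Cdkn1b (0.22 ± 0.067), and 5 genes of this list also stand in the memory list. Targets that did not pass were Irf4 (0.16), Cdkn1a (-0.14), Trp53 (-0.14), Chek1 (-0.11) and Cd69 (0.10). Prdm1 rested on the D370Y pair (1.07, against 0.17 and 0.14), and its call was lost without WT replicate 3.

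In the NCOR complex, whose subunit carries the lesion, 1 of 6 autosomal members tested was called (16.7%, against 13.1% of all genes). Coro2a, an actin-binding WD40 protein found with the complex, fell (-0.33 ± 0.055; adjusted p = 6.54e-05), with pair differences of -0.084, -0.42 and -0.50. It had 44.1, 45.1, 46.8, 47.8 and 49.99 CPM in ImuBcl6 D370Y libraries, against 56.8, 61.4, 62.4, 65.9 and 68.9 CPM in ImuBcl6 libraries, without overlap, and 45.4, 64.3, 66.4, 69.1 and 70.4 CPM in KO libraries, against 78.7, 86.0, 86.9, 90.2 and 103 CPM in Cre control libraries, also without overlap. In the first pair it had 64.8 to 80.3 CPM in D370Y and 76.8 to 78.5 CPM in WT libraries. Ncor1 (-0.052), Hdac3 (-0.019) and Gps2 (-0.088) did not pass, nor did Tbl1xr1. Without KO replicate 3 the count was 2.

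Genes of lipid handling formed the group with the largest single rise. Of 16 LXR nuclear receptor target and cholesterol efflux genes tested, limma called 10 higher without KO replicate 3, and edgeR and DESeq2 10 each. With all libraries limma called 7 higher (43.8%, against 5.37% of all genes), with a median of 0.17. Beside Cd36, these were the cholesterol efflux transporters Abcg1 (0.76 ± 0.094) and Abca1 (0.55 ± 0.11), the phospholipid transfer protein Pltp (0.72 ± 0.13), the monoacylglycerol lipase Mgll (0.46 ± 0.080), the desaturase Scd2 (0.31 ± 0.081) and Mylip (0.25 ± 0.055), a ubiquitin ligase of the LDL receptor. Abcg1 had 15.8, 18.9, 20.9, 23.3 and 23.3 CPM in D370Y libraries, against 9.90, 11.6 and 15.4 CPM in WT libraries. The other pairs had 8.56, 11.99, 13.8, 14.1 and 19.3 CPM in ImuBcl6 D370Y libraries, against 6.08, 6.66, 7.44, 7.63 and 10.2 CPM in ImuBcl6 libraries, and 11.7, 12.7, 15.04, 16.2 and 17.97 CPM in KO libraries, against 6.94, 6.995, 7.39, 8.18 and 9.13 CPM in Cre control libraries, and only in the ImuBcl6 pair did the groups overlap. Abcg1 passed in each pair, with 0.69, 0.74 and 0.84. The receptors themselves, Nr1h2 (-0.067) and Nr1h3 (0.099), did not pass, nor did the sterol factor Srebf1 (0.019) or Apoe (0.082). Exons of Pltp overlap the opposite-strand gene Ctsa. Of the 4 retinoid genes tested, Dhrs3 and Rdh11 (-0.20 ± 0.051), both of which act on retinaldehyde, fell (50%, against 7.74% of all genes). Dhrs3 had 8.49 ± 2.29 CPM (SD, n = 5) in D370Y and 10.7 ± 1.71 CPM (SD, n = 3) in WT cells, 3.95 ± 1.02 CPM (SD, n = 5) in ImuBcl6 D370Y and 11.1 ± 2.22 CPM (SD, n = 5) in ImuBcl6 cells, and 9.08 ± 1.20 CPM (SD, n = 5) in KO and 18.1 ± 1.81 CPM (SD, n = 5) in Cre control cells.

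Receptors for chemoattractants gave 6 rises and 1 fall among 10 tested (70% called, against 13.1% of all genes). S1pr3 (0.24 ± 0.060) and S1pr4 (0.24 ± 0.070) rose beside S1pr1, Gpr183, Ccr6 and Ccr7, and 4 of the list's genes also stand in the memory list. Cxcr4, the dark zone homing receptor, fell (-0.20 ± 0.056), while Cxcr5, the follicle homing receptor, was at -0.026 and did not pass. Of 14 dark zone genes tested, Cxcr4, the translesion polymerase Polh (-0.36 ± 0.057) and Racgap1 (-0.18 ± 0.057) fell and Foxp1 rose, and without KO replicate 3, or by edgeR or DESeq2, 5 or 6 fell. Polh had 187 ± 24.2 CPM (SD, n = 5) in D370Y and 231 ± 7.28 CPM (SD, n = 3) in WT cells, 149 ± 11.6 CPM (SD, n = 5) in ImuBcl6 D370Y and 200.3 ± 22.1 CPM (SD, n = 5) in ImuBcl6 cells, and 134 ± 19.1 CPM (SD, n = 5) in KO and 172 ± 9.96 CPM (SD, n = 5) in Cre control cells, with no overlap in any pair. Of 16 light zone genes Ccnd2 rose and Traf1 (-0.20 ± 0.055) and Slamf1 (-0.19 ± 0.065) fell, with Myc (0.070), Cd83 (0.065) and Cd40 (0.039) not called. The share called was 18.8% of light zone and 28.6% of dark zone genes, against 13.1% of all genes.

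Proliferation genes moved by small amounts. Of 18 G1/S genes, the replication licensing factor Cdc6 (-0.15 ± 0.043) and the maintenance methylation factor Uhrf1 (-0.19 ± 0.052) fell (median -0.10), and of 18 G2/M genes the mitotic genes Bub1b (-0.15 ± 0.047), Cdca8 (-0.17 ± 0.054) and Tpx2 (-0.14 ± 0.047) fell (median -0.11), shares of 11.1% and 16.7% against 7.74% of all genes. The G2/M count was 0 without WT replicate 1 or without WT replicate 3, 6 by edgeR and by DESeq2 and 7 with Xist as a covariate, and the G1/S count was 3 by edgeR and 4 by DESeq2. No gene of either list was called higher by limma, edgeR or DESeq2, nor at an unadjusted p below 0.05. Among the D cyclins Ccnd2 rose, Ccnd3 fell (-0.35 ± 0.058) and Ccnd1 was not called (0.061), with Cdkn2c lower (-0.21 ± 0.063). Exons of Ccnd3 overlap the opposite-strand gene Bysl, and those of Ccnd2 overlap 9330179D12Rik. No gene of MYC and ribosome biogenesis was called among 15 tested, by limma, edgeR or DESeq2, and none had an unadjusted p below 0.05. Their differences ran from -0.040 for Polr1b to 0.086 for Rrp12 (median 0.028).

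Plasma cell genes were mixed, with Prdm1 and Cd93 (0.49 ± 0.078) higher and Slamf7 (-0.17 ± 0.049) lower of 14 tested, and 4 higher and 1 lower without KO replicate 3, by edgeR and by DESeq2. The pair medians were 0.35, 0.096 and -0.15, and Xbp1 (-0.062), Irf4 and Sdc1 (0.18) were not called. Interferon response genes had 5 of 17 higher (29.4%, median 0.20): Pml (0.76 ± 0.11), Ifit3 (0.61 ± 0.14), the GTPase Iigp1 (0.60 ± 0.13), Ifit2 (0.29 ± 0.0998) and Isg15 (0.28 ± 0.095), whereas Irf7 (-0.0020) was not called. By edgeR 8 interferon genes were called higher and by DESeq2 9, with 9 at an unadjusted p below 0.05. No interferon gene was called lower by limma, edgeR or DESeq2, nor at an unadjusted p below 0.05. Of 15 NF-kB response genes Traf1 fell (with 2 others higher without KO replicate 3), and of 17 B cell receptor signalling genes Bank1 and the inhibitory coreceptor Cd72 (0.35 ± 0.058) rose and Blnk (-0.19 ± 0.050) fell, with 4 higher without KO replicate 3, by edgeR and by DESeq2. None of 13 MHC class II presentation genes was called by limma, with 2 higher at an unadjusted p below 0.05, 2 higher by edgeR, 3 by DESeq2, and 5 without KO replicate 3. Of 16 immediate early and handling genes Atf3 (-0.26 ± 0.088) and Dnajb1 (-0.27 ± 0.067) fell, and without KO replicate 3 another was called higher. The shares called were 21.4% of plasma cell, 6.67% of NF-kB response, 17.6% of B cell receptor signalling and 12.5% of handling genes. Over all genes the share was 13.1%. Exons of Cd72 overlap the gene Tesk1.

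Markers of other cells moved beside these groups. Of 14 myeloid markers 8 were called higher (57.1%, against 5.37% of all genes), with a median of 0.39. The pair medians were 0.70, 0.44 and -0.015, so the rise lay in the D370Y pairs. The markers summed to 56.9 to 74.3 CPM in D370Y against 29.1 to 39.9 CPM in WT libraries, 51.1 to 74.0 CPM in ImuBcl6 D370Y against 33.1 to 42.0 CPM in ImuBcl6 libraries, and 124 to 278 CPM in KO against 154 to 242 CPM in Cre control libraries. Lyz2 had 2.41, 3.72, 4.31, 4.65 and 6.14 CPM in D370Y libraries, against 0.818, 0.931 and 1.25 CPM in WT libraries, and no myeloid marker was at 0 in all libraries of a group. Itgam (0.90 ± 0.12) had differences of 1.38, 1.15 and 0.17. It also stands with Zeb2 and the receptor Fcrl5 (0.75 ± 0.091) among the 3 called, all higher, of 8 tested genes of atypical CD11 positive memory B cells, with Itgax (0.59) and Tbx21 (0.13) not called. The 3 were 37.5% of this list, against 5.37% of all genes called higher. Of this list 5 were called higher without KO replicate 3, with CPM over listed genes, by edgeR and by DESeq2. Exons of Csf1r (0.50 ± 0.13), another myeloid riser, overlap the opposite-strand gene Hmgxb3. Without the D370Y pair 2 myeloid markers were called. In the KO pair the summed level overlapped between the groups. Cd36, Zeb2, Gpr183, S1pr1 and Bcl2, which were called in every pair, were higher there. Plac8, Emr1, Itgam and Lyz2 were not called in that pair. These genes were picked with their calls known, so they cannot show the part of myeloid RNA in the rises, which was not tested.

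T cell markers had 2 of 4 tested called higher (50%, against 5.37% of all genes), Cd3g (0.53 ± 0.15) and Cd2 (0.33 ± 0.079). Cd3g differed by 0.26, 1.45 and -0.13 in the pairs, and its call was lost by edgeR and by DESeq2. The 8 T cell markers summed to 136 to 168 CPM in D370Y against 134.98 to 137 CPM in WT libraries. The sums were 176 to 222 CPM in ImuBcl6 D370Y against 123 to 150.2 CPM in ImuBcl6 libraries. In the last pair they were 125 to 286 CPM in KO against 148 to 185 CPM in Cre control libraries. Both stroma and endothelium markers tested rose, Pecam1 (0.30 ± 0.071) and Cdh5 (0.27 ± 0.081), with Kdr, Col1a1, Col1a2 and Col3a1 at 0 in all WT libraries and Col3a1 at 0 in all Cre control libraries. The 7 stroma markers summed to 74.6 to 113 CPM in D370Y against 71.2 to 72.2 CPM in WT, 60.4 to 94.4 CPM in ImuBcl6 D370Y against 45.6 to 60.6 CPM in ImuBcl6, and 52.6 to 77.0 CPM in KO against 49.8 to 63.1 CPM in Cre control libraries. Hba-a1 was at 0 in every library, the 1 erythroid marker tested was not called, and the erythroid markers summed to at most 45.7 CPM in KO and 9.93 CPM in the other 5 groups. Of 6 pan B cell markers none was called by limma, at an unadjusted p below 0.05 none was either, and edgeR, DESeq2 and limma without KO replicate 3 each called 1 higher. Their part in the results was not tested.

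An average can hide unequal effects, which were tested by an F-test of the 3 differences being equal. Sex runs with lesion in opposite directions in the D370Y and ImuBcl6 pairs. The F-test therefore cannot tell a sex difference from a lesion effect that differs between these pairs. It called 33 of 10826 genes (0.305%), 20 of which were also called in the average. The pair that lay farthest from the others was ImuBcl6 D370Y for 16 of the 33, D370Y for 10 and KO for 7. Tox, an HMG-box factor, averaged -0.14 without passing the test (adjusted p = 0.158), and was called only in the ImuBcl6 pair, with differences of 0.37, -0.88 and 0.077 (F-test adjusted p = 6.37e-05). It had 23.2, 26.9, 27.7, 28.3 and 28.4 CPM in ImuBcl6 D370Y libraries, against 44.1, 45.7, 47.2, 55.5 and 60.9 CPM in ImuBcl6 libraries, without overlap, and the other pairs overlapped, with 30.7 to 39.2 CPM in D370Y and 21.6 to 33.1 CPM in WT libraries, and 21.6 to 30.2 CPM in KO and 19.1 to 24.6 CPM in Cre control libraries. Ffar2, a receptor for short-chain fatty acids, differed by 0.47, 0.78 and -0.46 (F-test adjusted p = 0.000530), with the KO libraries at 2.19 to 3.53 CPM below the Cre control libraries at 3.93 to 4.82 CPM. Ccnd2 had 30.8, 43.1, 48.3, 51.3 and 57.1 CPM in D370Y libraries, against 16.0, 16.9 and 17.2 CPM in WT libraries, a clear gap, but in the last pair 20.5, 21.8, 22.4, 22.9 and 23.3 CPM in KO libraries, against 19.3, 19.9, 20.7, 21.6 and 24.4 CPM in Cre control libraries, which overlapped. Its differences were 1.38, 0.41 and 0.068 (F-test adjusted p = 0.000836). Eif2c4, an Argonaute gene (0.16, -0.76 and -0.45), Eepd1 (0.23, -1.51 and -0.11), Lyz2 (1.36, 0.75 and -0.13), Plac8, Emp2 and Celsr1 were also called. At an unadjusted p below 0.05 the F-test had 953 genes, and without KO replicate 3 it called 85.

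Whether genes chosen in 2 pairs moved the same way in the pair left out was asked in separate fits that share no library. Of 889 genes called from the ImuBcl6 and KO pairs (8.21% of those tested), 731 (82.2%) had the same direction between D370Y and WT. The direction was kept by 266 of the 280 called higher, against 46.9% of all genes above 0, and by 465 of the 609 called lower (76.4%), against 52.7% of all genes below 0. Of 566 genes called from the D370Y and KO pairs (5.23%), 520 (91.9%) moved the same way on the ImuBcl6 background. Of 1360 genes called from both D370Y pairs (12.6%), 1156 (85.0%) moved the same way in KO cells, 73.8% of those called higher against 31.6% of all genes and 96.4% of those called lower against 68.4%. Among the chosen genes 155, 200 and 104 were also called in the left-out pair in the same direction, shares of 17.4%, 35.3% and 7.65%, where 3.31%, 7.81% and 1.37% of all genes were called. Without KO replicate 3 the KO pair had 263 such genes of 1360 (19.3%), where 4.23% of all genes were called, and the ImuBcl6 pair 299 of 1147 (26.1%). In the opposite direction 3, 3 and 0 were called with all libraries, and 3, 6 and 2 without KO replicate 3. Without KO replicate 3 the same-way counts were 1183 of 1502 for D370Y and 1025 of 1147 for ImuBcl6 D370Y. With Xist as a covariate the shares moving the same way were 32.6% of 2504 genes for D370Y and 38.8% of 564 for ImuBcl6 D370Y. Within these pairs Xist separates lesion from control libraries, so that fit cannot give the direction of the lesion effect there. For KO the share was 89.4% of 1215. The median difference in KO cells was 0.11 for genes called higher from the D370Y pairs, whose own median was 0.37. For genes called lower it was -0.19, with an own median of -0.23, and over all genes it was -0.058. Leaving out KO replicate 3 gave KO medians of 0.16 and -0.14, against 0.00080 over all genes. In that setting 83.9% of those called higher and 89.9% of those called lower moved the same way, against 50.3% and 49.7% of all genes.

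**Figure D5:**
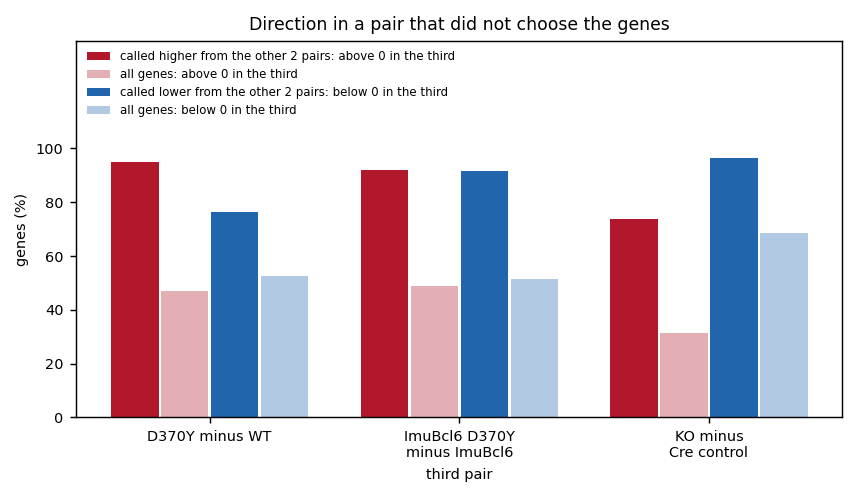
Share of genes (vertical axis, %) with the same direction in the pair (horizontal axis) that did not choose them, for genes called higher (dark red) or lower (dark blue) from the other 2 pairs, beside the share of all genes above 0 (light red) and below 0 (light blue) in that pair. Dark bars stand above their light bars in all 3 pairs, from 73.8% against 31.6% to 96.4% against 68.4% in KO cells.

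At the threshold itself, Slamf9 (0.23 ± 0.077, adjusted p = 0.0499) and Nfkbiz (0.31 ± 0.10, just under the threshold of 0.05) lay just inside, and Ssbp2 (-0.24 ± 0.082, 0.0501) and Marcksl1 (-0.21 ± 0.071, 0.0501) just outside.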

How the data were processed

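RNA-seq of germinal center B cells was deposited as CPM for 28 libraries, made by the authors with STAR on mm10 per the submitters' processing notes. The counting tool and its strand setting are not given in the sources used here. CPM came out as whole reads for 100% of values within 0.01 read. Library preparation with a stranded kit is named, per the labels, only for the KO and Cre control libraries. Of 23382 symbols, 22889 matched GENCODE M21 (97.9%), 21859 on autosomes.

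Groups follow the labels. log2(CPM + 1) was fitted with limma 3.58.1 (R 4.3.3, trend and robust) over 6 groups without a covariate. The averaged contrast, each pair's contrast and an F-test of equal effects were adjusted by Benjamini-Hochberg over the 10826 genes tested. Differences carry SE unless SD is named. In simulated data limma recovered 99% of 1.5-fold and 100% of 2-fold averaged changes, with 9 false calls among 10526 unchanged genes. The changed genes there had a mean of at least 5 CPM and the same change in each pair. Changes below 1.5-fold, the size of most calls, and the library-wide shift of KO replicate 3 were not simulated. Alternatives included edgeR 4.0.16 and DESeq2 1.42.0 on recovered reads, other scalings, filters and pseudocounts, and leaving out each library. Named genes are Tbl1xr1, Bcl6, the 12 largest called rises and falls at 5 CPM or more with 1 sign in the pairs, up to 4 called members of each list, the 6 most unequal effects and the genes next to the threshold; other list members are named to account for the list. The members and the lists were chosen with earlier results of these data known. A few named genes and list members are not reported here, though counts include them. No 2 libraries of a group agreed within sampling noise.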

Additional observations from a re-analysis of the deposited data

Results flagged for a closer look

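Within groups of 5 libraries, 1 library stood far from the other 4 in 31 of 445 checks of the named genes reported here (6.97%). The gap to the nearest library, as a share of the group's range, was above 0.71, which chance gives in about 1 in 20 groups. No explanation was tested.

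KO replicate 3 accounted for 10 of the 31. It was lowest of its group for Gm600 (244 CPM against 327 CPM in the nearest library, gap share 0.810), Racgap1 (132 against 192 CPM, 0.759), Coro2a (45.4 against 64.3 CPM, 0.754), Ccnd3 (286 against 392 CPM, 0.858), Cdkn2c (29.2 against 47.1 CPM, 0.738) and Cdca8 (161 against 239.5 CPM, 0.854). It was also lowest for Blnk (375 against 523 CPM, 0.847), Dnajb1 (104 against 152 CPM, 0.714) and Marcksl1 (174 against 297 CPM, 0.900), and highest for Nfkbiz (14.7 against 7.66 CPM, 0.8496). Other KO libraries stood apart for Tox (30.2 against 22.8 CPM, 0.868, replicate 2) and the haemoglobin gene Beta-s (41.5 against 8.13 CPM, 0.857, replicate 4).

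In D370Y libraries the highest value stood apart for Cd36 (189 against 94.6 CPM, 0.863) and Bank1 (427 against 339 CPM, 0.770) in replicate 5 and for Gpr183 (37.1 against 30.7 CPM, 0.764) and Bcl2 (22.7 against 16.8 CPM, 0.774) in replicate 4. ImuBcl6 D370Y replicate 3 was highest for Plac8 (258 against 132 CPM, 0.780), Grap2 (43.7 against 29.6 CPM, 0.722), Fcrl5 (44.3 against 26.8 CPM, 0.774) and Cdkn1b (13.3 against 11.3 CPM, 0.740), and lowest for Tox (23.2 against 26.9 CPM, 0.713). In the same group Osbpl3 (69.0 against 40.6 CPM, 0.931, replicate 2) and Bub1b (267 against 244 CPM, 0.812, replicate 4) had a high library and Ccr7 (6.10 against 8.82 CPM, 0.917, replicate 5) a low library.

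Among control libraries, Cre control stood apart for Gcet2 (lowest, 285 against 329.6 CPM, 0.970), Dnajb1 (highest, 240.4 against 177 CPM, 0.769), Eepd1 (highest, 7.49 against 6.78 CPM, 0.739) and Traf1 (highest, 161 against 144 CPM, 0.770). ImuBcl6 stood apart for Gcnt3 (highest, 6.10 against 3.92 CPM, 0.717), Uhrf1 (lowest, 354 against 419 CPM, 0.737) and Cd72 (highest, 241 against 217 CPM, 0.831).

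The difference between lesion and control libraries varied among the 3 pairs by limma's F-test for 9 of the named genes. Sex runs with lesion in opposite directions in the D370Y and ImuBcl6 pairs, so this test cannot tell sex from lesion there. The adjusted p was 6.37e-05 for Tox, 0.000530 for Ffar2, 0.000625 for Emp2, 0.000836 for Ccnd2, 0.00265 for Eif2c4, 0.0110 for Eepd1, 0.0235 for Celsr1, 0.0274 for Lyz2 and 0.0444 for Plac8.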

How the results depend on the processing

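The number of genes called in the average (1419) was 3065 with estimated library weights, 885 without the D370Y pair and 571 without the ImuBcl6 pair. Leaving out 1 library gave 1104 (without WT replicate 3) to 2058 (without KO replicate 3), edgeR 1702 and DESeq2 1946. Xist as a covariate gave 2120 calls, 678 of them higher, and kept 1388 of the 1419.

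The number of unequal effects (33) was 13 with a minimum of 5 CPM and also 13 without the D370Y pair or without the ImuBcl6 pair, 54 with CPM over listed genes, 58 with sex chromosomes, 135 with Xist as a covariate, 159 by DESeq2 and 424 with library weights. A setting chosen after seeing the data, CPM over listed genes without KO replicate 3, gave 81 (and 2019 averaged calls). Leaving out 1 library gave 22 to 85, with 68 without D370Y replicate 5 and 51 without ImuBcl6 replicate 1.

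Genes called from 2 pairs and moving the same way in the pair left out numbered 550 to 1183 for D370Y, 317 to 1025 for ImuBcl6 D370Y and 743 to 1229 for KO when 1 library was left out. The lowest ImuBcl6 D370Y counts were 317 without WT replicate 3 and 332 without WT replicate 2, and the 743 for KO was without WT replicate 2. The ImuBcl6 D370Y count was 847 with DESeq2 size factors and 219 of 564 with Xist as a covariate, which also gave 817 of 2504 for D370Y. In these pairs Xist and lesion cannot be told apart.

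No steady pairing of libraries by replicate number was seen: over 13 same-number pairs the correlation of deviations ran from -0.256 to 0.492, above 0.1 in 4. With the replicate block 1053 genes were called in the average (961 of the 1419 among them), 84 had unequal effects, and 337 was the same-way count for ImuBcl6 D370Y.

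Of 4271 comparisons of a named gene with a setting, 3960 kept direction and side of the threshold, 245 lost the call, 65 gained it and 1 reversed: Eepd1 was at 0.059 without the ImuBcl6 pair. Calls lost most often were those of Nfkbiz, Slamf1, Atf3, Ifit2 and Slamf9. Without single WT libraries calls were also lost for Bub1b, Cdca8, Cdh5, Cdkn1b, Cdkn2c, Eepd1, Prdm1, Racgap1 and Tpx2. The cause was not tested. The 3 WT libraries limit the precision of the D370Y pair, and 3 reads equal at most 0.133 CPM.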
